A study of Mus musculus with 12 samples.

Results

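Metallothioneins and the proteins that move zinc across membranes were followed as a set of 5 mouse genes. The members were given as a list of symbols with no threshold on measured values, although the list was drawn up with earlier results of these data known, and were matched to the Ensembl identifiers of the count table. All 5 were found among its 24187 genes, and all 5 passed the filter on low counts. They are Mt1 and Mt2, which encode metallothioneins, Mtf1, which encodes the zinc-sensing transcription factor, Slc39a14, which encodes the zinc importer ZIP14, and Slc30a1, which encodes the zinc exporter ZnT1.

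Bulk RNA sequencing was performed on the livers of 12 mice. The labels used here give no strain, and the study's methods give C57BL/6J in one place and C57BL6/JOlaHsd for the APAP experiments. The control group (n = 3) is labelled as uninjured and untreated, and the other groups received acetaminophen (APAP, paracetamol) at a labelled dose of 350 mg/kg, followed by PBS vehicle (n = 5) or by human alternatively activated macrophages (hAAM, n = 4). hAAM are macrophages grown from human blood monocytes and polarised with IL-4 and IL-13, and the mouse host keeps its own macrophages. The study's methods give mice of 10 to 12 weeks, fasted for 12 h before APAP and treated 16 h after it. The sequencing appears in the study's account of its severe model, for which the text and a figure legend give 500 mg/kg and 1000000 cells. The legend puts collection at 32 h after APAP and the methods at 36 h, while the sex of the sequenced mice was not given in the sources used here. The methods describe fasting and injection of APAP or saline, and do not say whether the sequenced control mice were among those given saline, so injury, fasting and handling cannot be told apart against control.

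Metallothioneins are small cysteine-rich proteins of the cytosol that bind zinc and copper and can scavenge reactive species. In liver, free zinc is sensed by MTF1, which enters the nucleus and binds metal response elements (MREs) in the promoters of the metallothionein genes and of Slc30a1. ZIP proteins bring zinc into the cytosol and ZnT proteins take it out, and Slc39a14 and the metallothioneins are also known to respond to IL-6 and glucocorticoids in hepatocytes.

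Total counts per liver ranged from 47391650 to 74056505. The 5 hepatocyte markers measured (Alb, Apoa1, Ttr, Apob and Cps1) were abundant in every liver, with a summed level of 64623 to 95358 CPM (TMM-scaled counts per 1000000) in control, 69161 to 100526 in vehicle-treated and 71687 to 104888 in hAAM-treated livers, and 0 of the 5 were called in any comparison. One pair of libraries stood apart. The counts of vehicle replicate 3 and hAAM replicate 4 differed by 1.19 times counting noise (median over 15804 genes), whereas every other pair of injured livers differed by at least 2.37 times. Both were kept, because they carry different treatment labels, and the member comparisons below are also given without both. Their small spread cannot tell a single liver under different labels from separate livers, and which of these holds was not tested.

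Mt1 and Mt2 lie 5513 bases apart on mouse chromosome 8, and both, like Slc30a1, hold MRE core matches close to their start. Promoter windows of 300 bases (250 before to 50 from the annotated start on) were available for 4 of the 5 members in the RefSeq table (GRCm38.p6). The MRE core was searched as TGCACNC or TGCGCNC on both strands. Mt2 held 4 matches, Mt1 held 3, Slc30a1 held 2 and Mtf1 held 0. Among all 32851 windows of this length, 25.7% held at least 1 match, 7.11% at least 2, 1.97% at least 3 and 0.517% at least 4. Matches were not particular to the members, as Slc30a4, Slc30a10 and Csrp1, described later, also held 3 each in a window. The stretches below hold most of the matches on which this count rests, with the match in capitals on the printed strand (a match on the other strand appears as its reverse complement), 5′ to 3′ on the plus strand. The last line shows the first bases from the RefSeq start of Mt1, which hold 2 of its 3 matches.
Mt2, chr8:94172368-94172617, plus strand: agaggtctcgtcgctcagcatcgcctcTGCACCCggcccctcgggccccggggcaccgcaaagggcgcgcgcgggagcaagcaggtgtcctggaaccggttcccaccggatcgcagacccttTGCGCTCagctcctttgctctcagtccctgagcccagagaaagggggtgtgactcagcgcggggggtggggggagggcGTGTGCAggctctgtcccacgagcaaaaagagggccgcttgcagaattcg
Mt1, chr8:94178839-94179081, plus strand: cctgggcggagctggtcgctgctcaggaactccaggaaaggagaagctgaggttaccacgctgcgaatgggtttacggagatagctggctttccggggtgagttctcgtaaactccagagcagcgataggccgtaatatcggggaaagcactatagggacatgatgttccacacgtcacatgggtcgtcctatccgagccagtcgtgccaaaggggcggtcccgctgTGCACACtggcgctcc
Slc30a1, chr1:191906531-191906766, plus strand: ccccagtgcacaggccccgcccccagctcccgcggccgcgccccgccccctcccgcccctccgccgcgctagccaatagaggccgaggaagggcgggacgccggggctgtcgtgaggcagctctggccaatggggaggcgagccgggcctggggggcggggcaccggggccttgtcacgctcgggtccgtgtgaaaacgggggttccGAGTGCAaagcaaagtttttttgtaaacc
Mt1 from its RefSeq start, chr8:94179089-94179118, plus strand: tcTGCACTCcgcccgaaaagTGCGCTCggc

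The remaining matches of Mt2 and Slc30a1 lie after the start, at bases 4 to 10 and 30 to 36 from it (the first base counted as 0), and are not printed. The other elements searched were TGACNNNGC (antioxidant element), ACANNNTGT (glucocorticoid element) and TTCNNNGAA (STAT). The antioxidant element was matched once each in the windows of Mt2 and Slc30a1 and is held by 12.4% of all windows. A glucocorticoid element was matched once in Mt1 (6.85% of all windows), and no STAT match was found in these 4 windows (8.3% of all windows). These are letter matches in a fixed window and not measured binding sites.

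**Figure D1:**
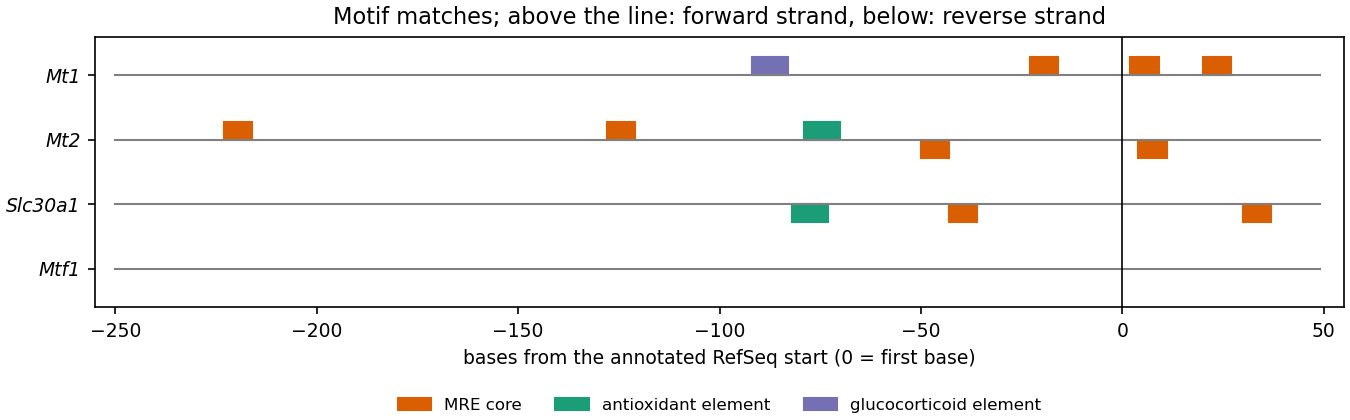
Positions of motif matches in the 300-base promoter windows of Mt1, Mt2, Slc30a1 and Mtf1, in bases from the annotated RefSeq start, with forward-strand matches above the line and reverse-strand matches below it. MRE cores are most numerous in Mt2 (4) and Mt1 (3), and the window of Mtf1 holds none of the motifs.

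Set per kilobase of the principal transcript (RPKM), the members spanned a wide range in control livers. Mt1 was the most abundant at 973 ± 139 RPKM (SD, n = 3). Slc39a14 followed at 129 ± 7.64 RPKM and Mt2 at 105 ± 13.2 RPKM, and the ranges of these neighbours overlapped narrowly, with control livers at 120 to 134 RPKM for Slc39a14 and 97.8 to 121 RPKM for Mt2. Slc30a1 (11.4 ± 2.21 RPKM) and Mtf1 (4.41 ± 0.155 RPKM) were far lower and did not overlap. The order in vehicle-treated livers was Mt1 (555 ± 132 RPKM), then Slc39a14 (68.5 ± 6.47 RPKM) and Mt2 (67.2 ± 20.0 RPKM), whose ranges overlapped, then Slc30a1 (9.13 ± 0.918 RPKM) and Mtf1 (3.45 ± 0.261 RPKM). In hAAM-treated livers Mt1 stood at 422 ± 206 RPKM, Slc39a14 at 64.7 ± 7.70, Mt2 at 47.0 ± 21.6, Slc30a1 at 7.64 ± 1.11 and Mtf1 at 3.55 ± 0.251 RPKM, and the ranges of Slc39a14 and Mt2 again overlapped.

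The first question was whether the zinc-handling members differ between injured and uninjured liver. All 5 had lower mean levels in both APAP groups than in control. In hAAM-treated livers all 5 members were called lower (edgeR quasi-likelihood test, Benjamini-Hochberg FDR under 0.05 over all genes tested), and in vehicle-treated livers 2 of 5 were, Mtf1 and Slc39a14. Of all 22581 genes tested, 29.8% were called in vehicle-treated livers (14.8% lower and 15.0% higher) and 20.7% in hAAM-treated livers (9.96% lower and 10.7% higher). In 4 of the 5 members every injured liver lay below every control liver in TMM-scaled CPM, as it did in 11.4% of all genes tested (22.6% were apart in either direction). This separation depends on the scaling, and it was not counted with library size alone. Both comparisons share the 3 control livers, so their values are given side by side and are not independent of each other. Between the APAP groups 0 of the 5 members and 0% of all genes were called.

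**Figure D2:**
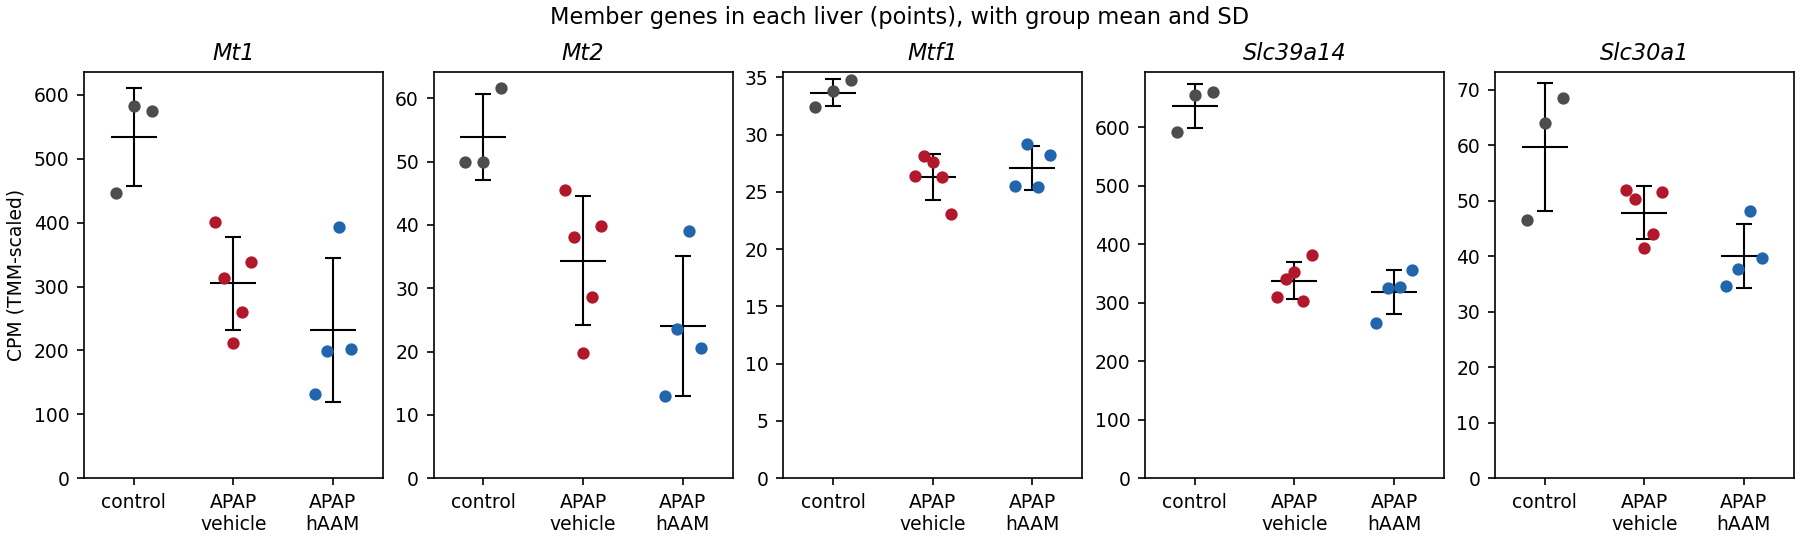
Level of each member in each liver (points; CPM, TMM-scaled, linear axis from 0), with the group mean and SD, for control (n = 3), APAP vehicle (n = 5) and APAP hAAM (n = 4). The injured livers lie below the control livers without overlap for Mt1, Mt2, Mtf1 and Slc39a14, and overlap them for Slc30a1.

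Mt1 (ENSMUSG00000031765, GRCm38 chr8:94179082-94180327, plus strand, protein-coding) encodes a metallothionein that hepatocytes make in large amounts. Its counts in control replicates 1 to 3 were 23410, 36997 and 29098, or 446, 582 and 575 CPM. Vehicle replicates 1 to 5 had 23301, 17992, 10930, 17595 and 22891 counts, or 401, 313, 212, 260 and 339 CPM. hAAM replicates 1 to 4 had 6954, 10751, 20330 and 10828 counts, or 132, 199, 394 and 202 CPM. Every injured liver lay below every control liver in TMM-scaled CPM, and hAAM replicate 3 stood well above the other hAAM livers, inside the vehicle range. The log2 fold change against control was −1.21 ± 0.310 (SE) in hAAM-treated livers (edgeR FDR 0.0186), or 0.433 times the control level. In vehicle-treated livers it was −0.81 ± 0.293 and narrowly missed the threshold (edgeR FDR 0.0546), whereas DESeq2 gave −0.81 with an FDR of 0.0269 and library size alone −0.46 with an edgeR FDR of 0.183. The call in hAAM-treated livers was lost without control replicate 2 (−1.14, edgeR FDR 0.0521), control replicate 3 (−1.15, FDR 0.0609) or hAAM replicate 2 (−1.14, FDR 0.0523). A call was gained in vehicle-treated livers without vehicle replicate 1 (−0.93, FDR 0.0476), hAAM replicate 1 (−0.81, FDR 0.0317) or hAAM replicate 3 (−0.81, FDR 0.0119).

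Mt2 (ENSMUSG00000031762, GRCm38 chr8:94172664-94173568, plus strand, protein-coding) encodes the second metallothionein that most tissues express. Control replicates 1 to 3 had 2622, 3179 and 3122 counts, or 49.97, 50.001 and 61.7 CPM. Vehicle replicates 1 to 5 had 2647, 2185, 1018, 1933 and 2694 counts, or 45.5, 38.0, 19.7, 28.6 and 39.9 CPM. hAAM replicates 1 to 4 had 682, 1272, 2020 and 1100 counts, or 12.9, 23.6, 39.1 and 20.5 CPM. All 9 injured livers lay below the lowest control liver in TMM-scaled CPM, and vehicle replicate 3 and hAAM replicate 1 were the lowest of their groups. The log2 fold change was −1.17 ± 0.326 in hAAM-treated livers (edgeR FDR 0.0264), or 0.446 times control, and −0.65 ± 0.308 in vehicle-treated livers (edgeR FDR 0.131; with library size alone −0.30, FDR 0.431), or 0.638 times control. The hAAM call was lost without any 1 of control replicates 1, 2 and 3 (log2 fold changes −1.21, −1.22 and −1.05; edgeR FDR 0.0535, 0.0502 and 0.0889) and without hAAM replicate 1, 2 or 4 (−0.95, −1.15 and −1.09; FDR 0.058, 0.0624 and 0.0564). The Mt2 gene overlaps Gm45774 on the opposite strand, which had 64 to 588 counts per liver, and as the use of strand in counting was not given in the sources used here, some reads of the pair cannot be told apart. The same holds for 1110065P20Rik opposite Mtf1 (130 to 218 counts per liver) and 1700034H15Rik opposite Slc30a1 (14 to 48 counts).

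The metallothioneins also varied more from mouse to mouse than most genes. The biological coefficient of variation was 0.290 for Mt1 and 0.302 for Mt2, at percentiles 81.0 and 82.7 of all genes tested, against 0.0966 for Mtf1 (percentile 6.75), 0.132 for Slc39a14 and 0.147 for Slc30a1. Both metallothionein mRNAs are short (549 and 511 bases in the principal transcript). Counted over all annotated exons, Mt2 has 588 bases and Mt1 has 1246. The 246 tested protein-coding genes with at most 750 exonic bases, the class of Mt2, had a median log2 fold change of −0.02 in vehicle-treated and −0.02 in hAAM-treated livers. The 1756 genes of 1000 to 2000 exonic bases, the class of Mt1, had medians of 0.02 and 0.01, and all genes tested 0.01 and 0.02.

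The ratio of Mt2 to Mt1 counts did not differ between the groups beyond the spread. Mt2 counts were 11.2%, 8.59% and 10.7% of Mt1 counts in control replicates 1 to 3. This percentage in vehicle replicates 1 to 5 was 11.4%, 12.1%, 9.31%, 10.99% and 11.8%, and in hAAM replicates 1 to 4 it was 9.81%, 11.8%, 9.94% and 10.2%. The mean log2 ratio of Mt2 to Mt1 was −3.31 ± 0.205 in control, −3.18 ± 0.149 in vehicle-treated and −3.26 ± 0.126 in hAAM-treated livers. Two-sided exact permutation tests gave p = 0.339 for vehicle against control (the smallest possible was 0.0179), p = 0.743 for hAAM against control (smallest 0.0286) and p = 0.365 for hAAM against vehicle (smallest 0.00794), or 0.548, 0.743 and 0.548 after adjustment over the 3 comparisons. The longest run of bases shared by the 2 transcripts was 20, which bears on how reads of the pair were assigned. Without the near-identical libraries the differences in the log2 ratio were 0.19 (exact permutation p = 0.0571), 0.05 (p = 0.8) and −0.14 (p = 0.2) in the same order.

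Mtf1 (ENSMUSG00000028890, GRCm38 chr4:124802104-124849800, plus strand, protein-coding) encodes the transcription factor that senses zinc. Control replicates 1 to 3 had 1701, 2149 and 1760 counts, or 32.4, 33.8 and 34.8 CPM. Vehicle replicates 1 to 5 had 1531, 1618, 1427, 1778 and 1557 counts, or 26.3, 28.2, 27.6, 26.3 and 23.0 CPM. hAAM replicates 1 to 4 had 1347, 1576, 1314 and 1513 counts, or 25.5, 29.2, 25.4 and 28.2 CPM. The fall was small and even, with no overlap between injured and control livers in TMM-scaled CPM. The log2 fold change was −0.36 ± 0.0769 in vehicle-treated livers (edgeR FDR 0.0054) and −0.31 ± 0.0808 in hAAM-treated livers (edgeR FDR 0.019). With library size alone as the scaling, the values were −0.01 (FDR 0.929) and −0.01 (FDR 0.967), while the median of all genes moved to 0.36 and 0.32. A change of scaling moves all genes by about the same amount, so an unchanged distance of Mtf1 from the median gene was bound to follow. The hAAM call was lost without control replicate 2 (−0.31, edgeR FDR 0.0501), control replicate 3 (−0.29, FDR 0.0732) or hAAM replicate 1 (−0.28, FDR 0.0555).

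Slc39a14 (ENSMUSG00000022094, GRCm38 chr14:70303469-70351425, minus strand, protein-coding) encodes ZIP14, which brings zinc, iron and manganese into hepatocytes. Control replicates 1 to 3 had 31100, 41653 and 33421 counts, or 593, 655 and 660 CPM. Vehicle replicates 1 to 5 had 18036, 19570, 18224, 20514 and 25765 counts, or 310, 341, 353, 303 and 381 CPM. hAAM replicates 1 to 4 had 14059, 17513, 16903 and 19097 counts, or 266, 324, 327 and 357 CPM. The gap between the lowest control and the highest injured liver was wider than the range within either injured group. The log2 fold change was −0.91 ± 0.111 in vehicle-treated livers (edgeR FDR 0.000266), or 0.531 times control, and −0.998 ± 0.118 in hAAM-treated livers (edgeR FDR 0.000398), or 0.501 times control. Both calls held under all 22 alternatives, with log2 fold changes of −0.97 to −0.57 and −1.06 to −0.70.

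Slc30a1 (ENSMUSG00000037434, GRCm38 chr1:191906767-191913247, plus strand, protein-coding) encodes ZnT1, the exporter that moves zinc out of the cell through the plasma membrane. Control replicates 1 to 3 had 2444, 4071 and 3471 counts, or 46.6, 64.0 and 68.6 CPM. Vehicle replicates 1 to 5 had 3019, 2888, 2143, 2975 and 3493 counts, or 51.9, 50.3, 41.5, 44.0 and 51.7 CPM. hAAM replicates 1 to 4 had 1829, 2039, 2490 and 2125 counts, or 34.6, 37.8, 48.2 and 39.7 CPM. Control replicate 1 lay inside the injured range, so that 2 of 5 vehicle livers and 3 of 4 hAAM livers were below every control liver. The log2 fold change was −0.58 ± 0.144 in hAAM-treated livers (edgeR FDR 0.0162) and −0.32 ± 0.137 in vehicle-treated livers (edgeR FDR 0.0971). The hAAM call was lost without control replicate 2 (−0.52, edgeR FDR 0.054) or control replicate 3 (−0.46, FDR 0.0764), in the fit of the 2 groups alone (−0.57, FDR 0.0509) and with library size alone as the scaling (−0.28, FDR 0.125), where the vehicle value turned to 0.03 (FDR 0.872). The vehicle comparison reached a call without control replicate 1 (−0.47, FDR 0.0249).

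**Figure D3:**
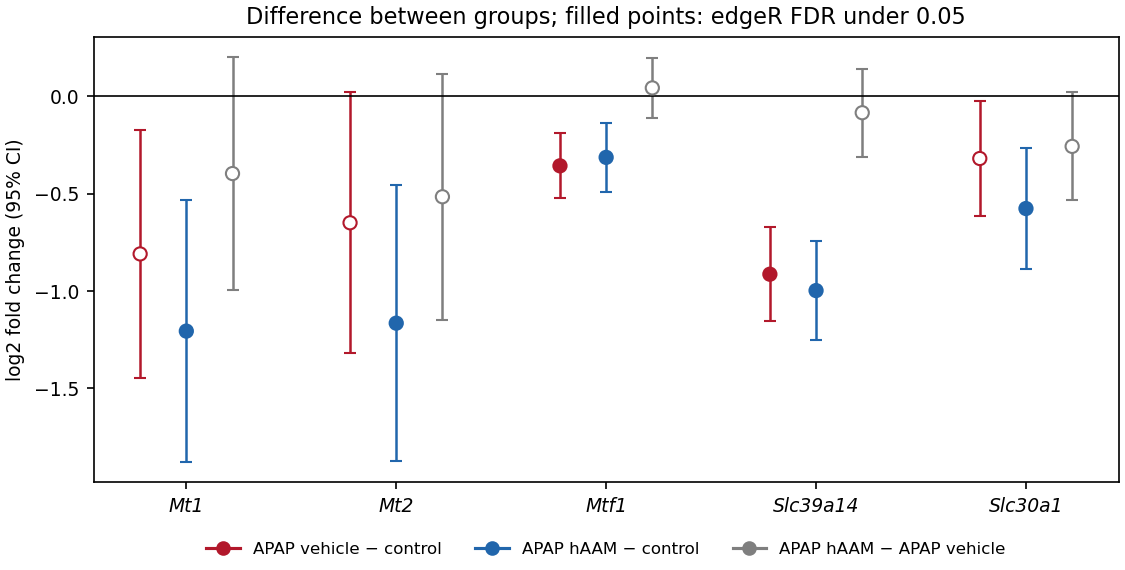
log2 fold change of each member in the 3 comparisons, with 95% confidence intervals from the edgeR fit and filled points for an FDR under 0.05. All 5 members are filled in hAAM against control, Mtf1 and Slc39a14 in vehicle against control, and none in hAAM against vehicle.

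The next question was whether hAAM changed these genes in injured livers. None of the 5 was called, the smallest unadjusted p was 0.0664 (Slc30a1), and no member was called under any of the 22 alternatives. Single livers moved the metallothionein values: without hAAM replicate 3 the log2 difference (hAAM minus vehicle) was −0.78 for Mt1 (unadjusted edgeR p 0.00365) and −0.85 for Mt2 (unadjusted p 0.00726), with an FDR of 1 for both, and without hAAM replicate 1 it was −0.20 and −0.31 (FDR 0.884 and 0.847). With all livers the log2 differences with their 95% confidence intervals were −0.40 (−0.995 to 0.20) for Mt1, −0.52 (−1.15 to 0.12) for Mt2, 0.04 (−0.11 to 0.20) for Mtf1, −0.08 (−0.31 to 0.14) for Slc39a14 and −0.26 (−0.53 to 0.02) for Slc30a1, and the edgeR FDR lay between 0.966 and 0.99. The intervals of Mtf1 and Slc39a14 are narrow, whereas those of the metallothioneins span more than 1 log2 unit. hAAM replicates 1, 2 and 4 lay below every vehicle liver for Mt1 and for Slc30a1, and hAAM replicate 3 did not for either gene. For hAAM replicate 4 the margin was narrow and rests on its near-identical library, vehicle replicate 3 (202 against 212 CPM for Mt1, 39.7 against 41.5 CPM for Slc30a1). Over all genes edgeR called 0 at FDR 0.05, with 1133 at an unadjusted p under 0.05, and DESeq2 called 1. Without the near-identical pair edgeR called 0 and DESeq2 88 genes, none of them a member. That a member passed the threshold against control in one treatment and not in the other does not show a difference between treatments, which the direct comparison did not detect.

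Without vehicle replicate 3 and hAAM replicate 4 together, the member calls stayed as they were. The log2 fold changes in hAAM-treated livers were then −1.14 for Mt1 (edgeR FDR 0.04), −1.09 for Mt2 (FDR 0.0404), −0.33 for Mtf1 (FDR 0.0309), −1.05 for Slc39a14 (FDR 0.0013) and −0.57 for Slc30a1 (FDR 0.0334). In vehicle-treated livers they were −0.69 (FDR 0.116), −0.50 (FDR 0.235), −0.37 (FDR 0.0101), −0.92 (FDR 0.00082) and −0.26 (FDR 0.205) in the same order. Between the treatments the FDR of the 5 members lay between 0.766 and 0.973.

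Among the 9 injured livers, Mt1, Mt2 and Slc30a1 moved together from mouse to mouse. Of the 10 pairs of members, 3 had a correlation of log2 CPM that passed adjustment. These were Mt1 with Mt2 (Pearson r = 0.978, two-sided exact permutation p = 0.000118, adjusted 0.000923; Spearman rho = 0.917, exact p = 0.00131, adjusted 0.00437), Mt1 with Slc30a1 (r = 0.955, exact p = 0.000185, adjusted 0.000923; rho = 0.95, exact p = 0.000353, adjusted 0.00353) and Mt2 with Slc30a1 (r = 0.953, exact p = 0.000331, adjusted 0.0011; rho = 0.917, exact p = 0.00131, adjusted 0.00437). Without the 2 livers farthest from the median of the gene named first, r was 0.946, 0.914 and 0.909. With each treatment's mean removed it was 0.972, 0.968 and 0.956, and without the near-identical pair of libraries (n = 7) it was 0.983, 0.952 and 0.961. The other 7 pairs, all with Mtf1 or Slc39a14, had r between −0.393 and 0.472 and adjusted exact permutation p of at least 0.429. Their values depended on the livers included. Without the near-identical pair, Slc39a14 had r = 0.657 with Mt1, 0.733 with Mt2 and 0.706 with Slc30a1 (n = 7, adjusted exact permutation p 0.198, 0.16 and 0.16). Without the 2 livers farthest from the median, r was −0.708 for Mt1 with Mtf1, −0.648 for Mt2 with Mtf1 and 0.776 for Mtf1 with Slc39a14, and these values were not tested. All points share the scaling of their library, and scaled by library size alone the 3 correlations were 0.981, 0.903 and 0.938.

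**Figure D4:**
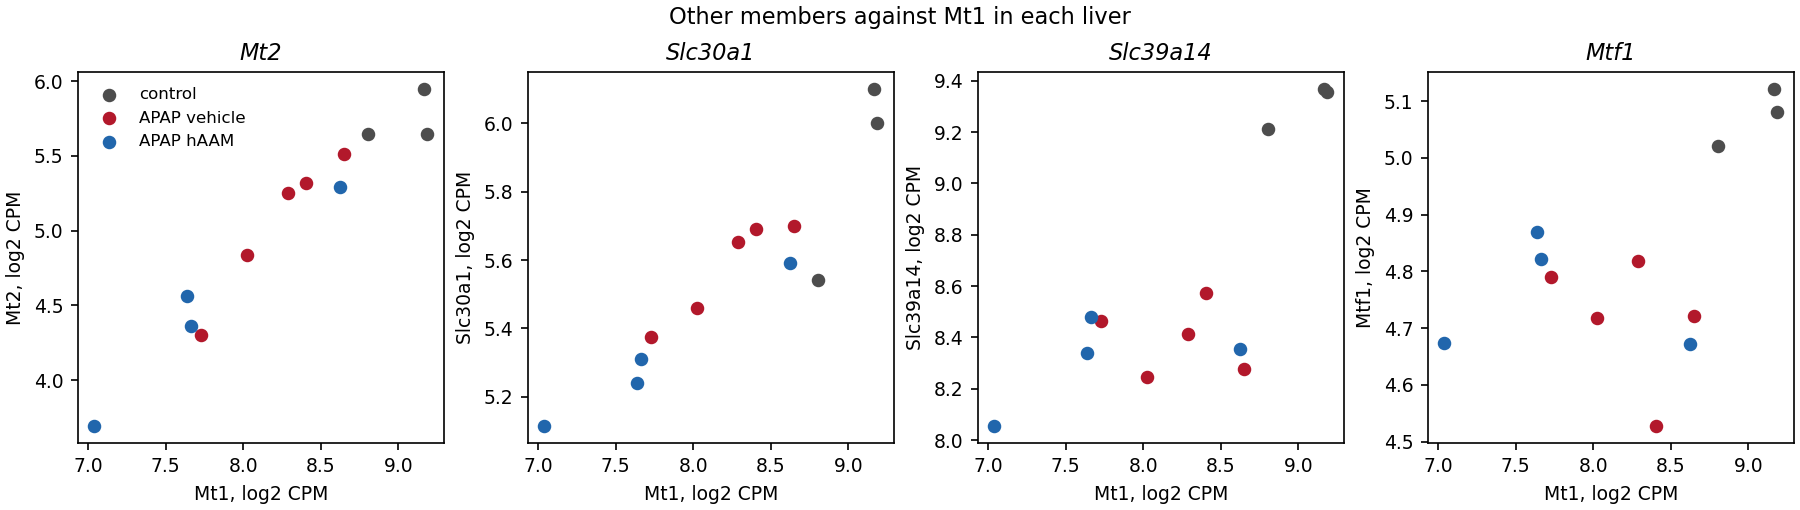
log2 CPM of Mt2, Slc30a1, Slc39a14 and Mtf1 against log2 CPM of Mt1 in each liver (points, coloured by group). Mt2 and Slc30a1 rise with Mt1 across the 9 injured livers (r = 0.978 and 0.955), whereas for Slc39a14 and Mtf1 the injured livers scatter widely (r = 0.418 and −0.319, neither past the test) and lie apart from the control livers.

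The genes closest to each member in their variation around the group means were taken over the 12 livers among 10250 protein-coding genes, the 5 members themselves left out, as a description. For Mt1 they were Manea (r = 0.928), Mertk (r = 0.877) and Golim4 (r = 0.868). For Mt2 they were Manea (r = 0.873), the glucocorticoid-induced co-chaperone Fkbp5 (r = 0.853) and Kank3 (r = 0.839). Golim4 was also the closest to Slc30a1 (r = 0.927), ahead of Dact2 (r = 0.909) and Tigd2 (r = 0.902). For Mtf1 they were Arpc5l (r = 0.941), Atrip (r = 0.882) and Nf2 (r = 0.877), and for Slc39a14 Bfar (r = 0.924), Alg11 (r = 0.906) and Kctd2 (r = 0.906). Mt1 thus shares Manea with Mt2 and Golim4 with Slc30a1.

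The counts in the wider families are a description, to be set beside the shares of all genes called (29.8% in vehicle-treated and 20.7% in hAAM-treated livers), and the difference from these shares was not tested. The third metallothionein measured, Mt3, is known mainly from brain. It had 0 to 2 counts in control, 11 to 142 in vehicle-treated and 5 to 19 in hAAM-treated livers, and was called higher in vehicle-treated livers (edgeR FDR 0.008) but not in hAAM-treated livers (FDR 0.118; DESeq2 FDR 0.019). No fold is given at such counts. Mt4 was not analysed here.

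Of the 10 ZnT genes, 8 were tested. In vehicle-treated livers 1 was called higher and 2 lower (median log2 fold change −0.12), and in hAAM-treated livers 0 higher and 3 lower (median −0.09), or 37.5% of the 8 in each. The largest change was that of Slc30a10, a manganese exporter of hepatocytes and bile duct, which fell from 92.4 ± 10.3 CPM in control to 23.4 ± 6.86 in vehicle-treated (log2 fold change −1.98 ± 0.211, edgeR FDR 0.000123) and 31.5 ± 6.74 in hAAM-treated livers (−1.55 ± 0.224, FDR 0.00139). Slc30a5, which loads zinc into the early secretory pathway, fell from 72.5 ± 1.76 CPM to 43.7 ± 2.72 (−0.73, FDR 4.64e-05) and 44.3 ± 2.01 (−0.71, FDR 0.000144). Slc30a4, an exporter of intracellular vesicles, rose in vehicle-treated livers (0.39, FDR 0.033) and stood at 0.14 in hAAM-treated livers (FDR 0.48). The Golgi exporter Slc30a7 (0.04 and −0.06; FDR 0.774 and 0.673) and Slc30a9 (−0.21 and −0.12; FDR 0.0633 and 0.303) were abundant and not called by edgeR. DESeq2 called Slc30a9 lower in vehicle-treated livers (−0.21, FDR 0.0404). With library size alone as the scaling, the ZnT medians turned to 0.23 and 0.21, the counts became 2 higher and 2 lower in vehicle-treated and 0 higher and 2 lower in hAAM-treated livers, and Slc30a7 was called higher in vehicle-treated livers (0.39, FDR 0.0287). Slc30a2 and Slc30a8 were not analysed here.

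All 14 ZIP genes were tested. In vehicle-treated livers 3 were called higher and 2 lower (median −0.21), and in hAAM-treated livers 2 higher and 3 lower (median −0.10), or 35.7% of the 14 in each. Slc39a14 had the largest fall of the family in both groups. Slc39a9, a Golgi importer, fell from 65.3 ± 2.71 CPM to 50.5 ± 4.64 (−0.37, FDR 0.00557) and 52.6 ± 2.87 (−0.31, FDR 0.0233), and the plasma membrane importer Slc39a1 had values of −0.20 (FDR 0.0951) and −0.29 (FDR 0.0389). DESeq2 also called Slc39a1 lower in vehicle-treated livers (−0.21, FDR 0.0485). The importers that rose were Slc39a13, of the early secretory pathway (0.52, FDR 0.00242, and 0.44, FDR 0.0105), Slc39a11 (0.41, FDR 0.00535, and 0.33, FDR 0.0263) and, in vehicle-treated livers, Slc39a6 (0.63, FDR 0.0402; in hAAM-treated livers 0.50, FDR 0.124). The abundant Slc39a4, the importer of dietary zinc in gut (−0.68, FDR 0.0744, and −0.67, FDR 0.112), and Slc39a8 (−0.24, FDR 0.153, and −0.17, FDR 0.375) were not called. With library size alone as the scaling, Slc39a9 (−0.03 and −0.01) and Slc39a1 (0.15 and 0.02) were not called, the ZIP medians turned to 0.14 and 0.21, and the ZIP counts became 5 higher and 1 lower in vehicle-treated and 3 higher and 1 lower in hAAM-treated livers. Without the near-identical pair, Slc39a1 lost its call in hAAM-treated livers (−0.28, FDR 0.0695).

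**Figure D5:**
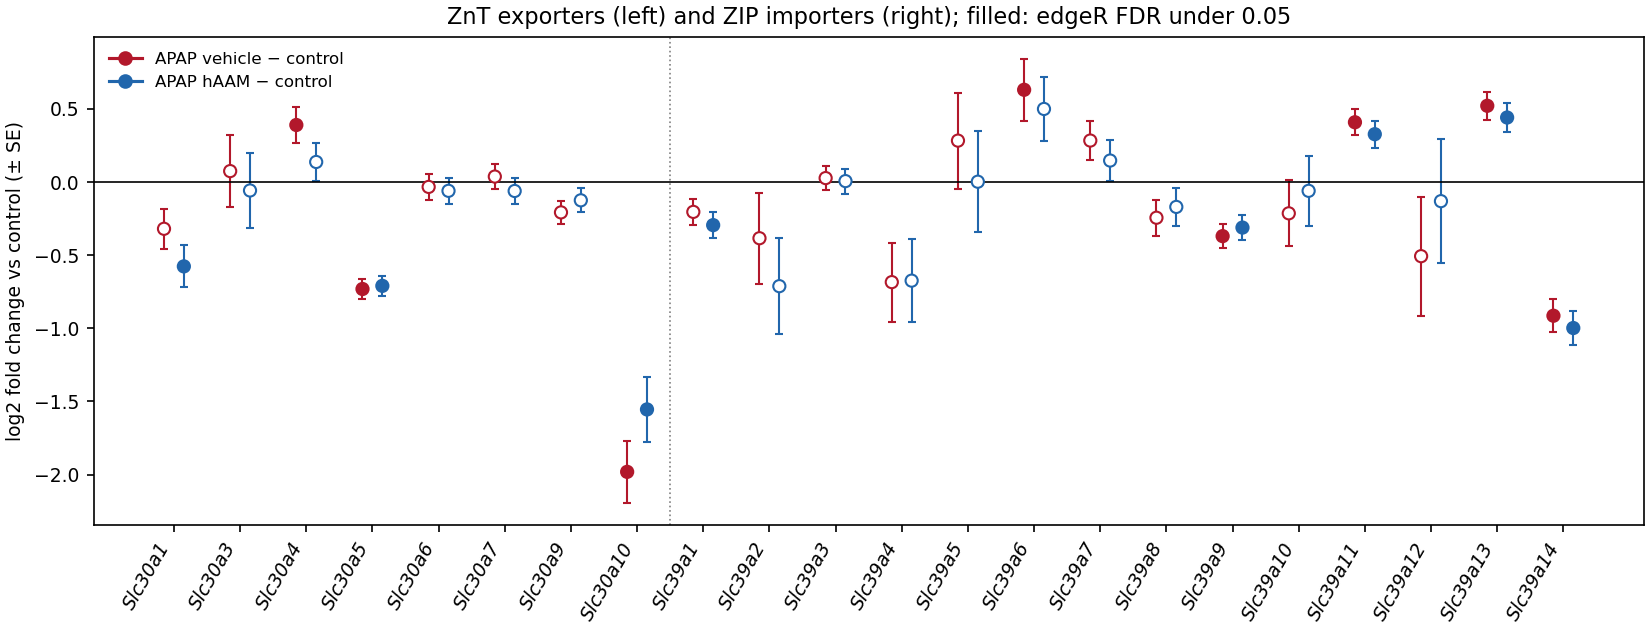
log2 fold change (± SE) against control of the 8 ZnT genes (left) and 14 ZIP genes (right) tested, in APAP vehicle and APAP hAAM livers; filled points have an edgeR FDR under 0.05. Slc30a10, Slc30a5 and Slc39a14 lie furthest below 0 among the called genes, and Slc39a11 and Slc39a13 lie above it in both groups.

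Of the 6 other genes listed as MTF1 targets, 2 were called higher and 0 lower in vehicle-treated livers (median 0.05), and 1 higher and 0 lower in hAAM-treated livers (median 0.02). These shares of 33.3% and 16.7% are near those of all genes (29.8% and 20.7%), and nothing particular to the list is read from them. Csrp1, a LIM-domain protein of stellate and smooth muscle cells, rose from 11.4 ± 2.11 CPM to 28.5 ± 7.996 (1.33, FDR 0.016) and 27.5 ± 13.6 (1.28, FDR 0.0298). Of 4 stellate cell markers 2 (50%), Des and Col1a1, were called higher in each APAP group. The sum of the 4 was 165 to 236 CPM in control, 251 to 438 in vehicle-treated and 229 to 552 in hAAM-treated livers. Col1a1 alone rose from 35.1 ± 17.8 CPM to 187 ± 97.4 and 218 ± 153, while Lrat (0.10 and 0.10) and Reln (−0.30 and −0.15) were not called. The part of stellate cells in the rise of Csrp1 was not tested. Slc40a1, the iron exporter ferroportin, rose in vehicle-treated livers (0.60, FDR 0.0445; without the near-identical pair 0.62, FDR 0.0713) and had a value of 0.55 in hAAM-treated livers (FDR 0.0867). Gclc, which makes the first step of glutathione synthesis (−0.12 and 0.03), Ndrg1 (0.03 and −0.42), the selenoprotein Selenow (0.08 and 0.02) and the importer Slc39a10 (−0.21 and −0.06) were not called, with FDR between 0.464 and 0.96. With library size alone 3 and 2 of the 6 were called higher (medians 0.40 and 0.33), with Selenow added in vehicle-treated (0.43, FDR 0.0246) and Slc40a1 in hAAM-treated livers (0.84, FDR 0.00905).

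Genes of other signals known to act on metallothioneins and Slc39a14 were described in the same way. Of 12 genes of IL-6 signalling and the acute phase, 9 were called lower and 0 higher in each APAP group (medians −0.96 and −0.95). Il1r1, the receptor of IL-1, fell by 1.49 and 1.32 on the log2 scale (FDR 4.16e-05 and 0.000188), Stat3, which carries the IL-6 signal, by 0.79 and 0.76 (FDR 0.000235 and 0.000787), and the fibrinogen chain Fgg by 1.19 and 1.12 (FDR 0.000401 and 0.00147). Socs3, a feedback inhibitor that STAT3 induces, had log2 fold changes of −2.05 and −2.58 (FDR 0.00136 and 0.00127), from a control level that varied widely (104 ± 74.0 CPM). Of 8 glucocorticoid-induced genes, 2 were called higher in vehicle-treated and 3 in hAAM-treated livers and 0 lower in either (medians 0.49 and 0.89). Genes of this list that were not called lay on both sides of 0 in each group. Fkbp5 rose (1.87, FDR 0.00026, and 1.38, FDR 0.00268), as did the clock gene Per1 (1.14, FDR 0.000769, and 1.28, FDR 0.000972), and Tsc22d3, an anti-inflammatory mediator, rose in hAAM-treated livers (0.99, FDR 0.0156; vehicle-treated 0.57, FDR 0.0823). The IL-6 list under scaling by library size alone had 8 lower and 1 higher in each group (medians −0.61 and −0.65), with the receptor Il6ra called higher (0.81 and 0.65) and Hp no longer called, and the glucocorticoid list had 3 and 4 higher and 0 lower (medians 0.83 and 1.18). With TMM scaling the shares called were 75% of the IL-6 list in each group and 25% and 37.5% of the glucocorticoid list, beside 29.8% and 20.7% of all genes. The difference from these shares was not tested, and no direction of the glucocorticoid list is read from its counts.

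Copper shares metallothioneins with zinc, and of 8 copper genes 3 were called higher and 3 lower in vehicle-treated livers (median −0.25) and 2 higher and 1 lower in hAAM-treated livers (median −0.17). Under scaling by library size alone these counts were 3 higher and 1 lower and 3 higher and 0 lower, and the medians turned to 0.10 and 0.14. The copper importer Slc31a1 fell (−0.50, FDR 0.00265, and −0.43, FDR 0.011; with library size alone −0.15 and −0.14, not called), and the copper pump Atp7b rose (0.45, FDR 0.00394, and 0.49, FDR 0.00563). Ccs, the copper chaperone of superoxide dismutase, fell in vehicle-treated livers (−0.72, FDR 0.0072; hAAM-treated −0.49, FDR 0.066). The pump Atp7a rose in both groups (0.41, FDR 0.0176, and 0.49, FDR 0.0141). Without the near-identical libraries, the counts higher and lower in the ZnT, IL-6, glucocorticoid and copper lists were the same in both groups.

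These are values of whole tissue, in which fewer cells of a type and less RNA per cell cannot be told apart. The 6 markers of pericentral hepatocytes, the cells around the central vein that activate APAP, were called lower in 6 of 6 cases in vehicle-treated and 4 of 6 in hAAM-treated livers. Their summed level was 3873 to 6240 CPM in control, 346 to 1445 CPM in vehicle-treated and 449 to 2827 CPM in hAAM-treated livers, and none of them was at 0 in any liver. Among 6 markers of infiltrating macrophages, 5 were called higher in each APAP group, with sums of 33.5 to 47.6, 113 to 409 and 112 to 351 CPM. Markers of periportal hepatocytes summed to 4194 to 5167, 3336 to 5507 and 2814 to 7586 CPM, with 1 of 6 called lower and 1 higher in vehicle-treated and 1 higher in hAAM-treated livers. Of 5 Kupffer cell markers 1 was called higher in each group, of 4 endothelial markers 2 were, and of 5 neutrophil and 4 biliary markers 0 were. Of 4 red cell markers 3 were called higher and 1 lower in vehicle-treated livers and 1 lower in hAAM-treated livers. The part of these cell types in the values of the members was not tested. The livers with the highest pericentral sums among the injured ones were hAAM replicate 3 (2827 CPM), vehicle replicate 3 (1445 CPM) and hAAM replicate 4 (1441 CPM). Mt1 in the same livers was 394, 212 and 202 CPM, and the latter 2 livers are the near-identical pair. The other injured livers had pericentral sums of 346 to 1019 CPM and Mt1 levels of 132 to 401 CPM. The relation of the sums to Mt1 was not tested.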

How the data were processed

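RNA from frozen liver was made into rRNA-depleted directional libraries. The authors trimmed reads with cutadapt 4.6, aligned them to GRCm38 with STAR 2.7.1a and used summarizeOverlaps for counts per Ensembl gene; the counting mode and use of strand were not given in the sources used here. The deposited values are raw counts of 24187 genes in 12 livers, each gene with a total of at least 15. Symbols and coordinates came from GENCODE M21 (same assembly), which held 24128 of the genes, and promoters from RefSeq (GRCm38.p6). No table of proteins was used here.

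Counts were analysed in R 4.3.3 with edgeR 4.0.16: filterByExpr by group (22581 genes kept), TMM scaling, and 1 quasi-likelihood fit of all 12 livers with 3 two-sided contrasts and the Benjamini-Hochberg FDR at 0.05. log2 CPM carries a prior count of 2. Single values and correlations were tested with exact permutation tests. The code was tested on simulated data. Each liver is taken as 1 mouse, which the labels do not state outright, so p-values measure the spread between these samples. Replicate numbers recur across groups; same-numbered livers had correlated deviations of −0.458 to 0.385, so the numbers were not taken to pair mice. Alternatives were DESeq2 1.42.0, RLE scaling, library size alone, no filter or at least 10 counts in every liver (18537 genes), the 2 groups alone, a replicate block, a robust fit and leaving out livers.

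The members and lists were chosen with earlier results of these data known. The genes named were the 5 members, Mt3 and Mt4, ZnT and ZIP genes that were called or abundant (mean log2 CPM 4 or more), every listed MTF1 target, at most the 4 called genes of smallest p in the lists of IL-6, glucocorticoid and copper genes, and the 3 genes most like each member among protein-coding genes (mean log2 CPM 2 or more). Some cell type markers and some genes whose call changed with the scaling were named besides these. DESeq2 without the near-identical pair was added after the data were seen. The protocol names 14 libraries, and 12 samples were analysed here.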

Additional observations from a re-analysis of the deposited data

How the results depend on the processing

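Slc39a14 kept its fall in both APAP groups under every alternative run. Mt1 in vehicle-treated livers gained a call with DESeq2 (−0.815) and in the fit of the 2 groups alone (−0.807). With library size alone, which moved the median of all genes to 0.36 and 0.32, Mtf1 lost its calls (−0.0122 in vehicle-treated and −0.00685 in hAAM-treated livers), as did Slc30a1 in hAAM-treated livers (−0.284), and Slc30a1 in vehicle-treated livers turned to 0.0291. Slc30a1 in hAAM-treated livers also missed the threshold in the fit of the 2 groups alone (−0.57, FDR 0.0509). In the fit with a replicate block, hAAM against control gave −1.19 for Mt1 (FDR 0.064), −1.13 for Mt2 (FDR 0.0886) and −0.552 for Slc30a1 (FDR 0.0534), so that these 3 calls were lost, and Mtf1 between the treatments turned to −0.00194. Calls over all genes fell under the block from 6719 to 4253 in vehicle-treated and from 4666 to 2959 in hAAM-treated livers.

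With each liver left out in turn, the values against control ranged as follows. In vehicle-treated livers they were −0.926 to −0.703 for Mt1 and −0.469 to −0.208 for Slc30a1. In hAAM-treated livers they were −1.59 to −1.01 for Mt1, −1.50 to −0.954 for Mt2, −0.348 to −0.282 for Mtf1 and −0.724 to −0.463 for Slc30a1. Between the treatments Mt1 ranged from −0.780 to −0.201 (−0.397 with all livers), Mt2 from −0.854 to −0.307 (−0.516), Slc39a14 from −0.142 to −0.00532 (−0.0840), Slc30a1 from −0.358 to −0.191 (−0.257) and Mtf1 from −0.000194 to 0.0730 (0.0435), and the log2 ratio of Mt2 to Mt1 in hAAM against control from −0.0755 to 0.116, in vehicle against control from 0.0139 to 0.205 (0.131 with all livers) and in hAAM against vehicle from −0.152 to −0.0560 (−0.0895). The correlation of Mtf1 with Slc39a14 (−0.0358) turned to 0.0335 with the treatment means removed and to 0.202 with library size alone, and it was 0.776 without the 2 livers farthest from the median and −0.245 without the near-identical pair; the values tested did not pass. The causes of these shifts were not tested. Depth was not limiting for the members, whose lowest count in a liver was 682.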
